A study of Sus scrofa with 4 samples.

Results

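The genes described here handle retinoids, the vitamin A derivatives, in pig epidermal cells sorted by a reporter of LGR5. They were chosen by name: CRABP1 and CRABP2 bind retinoic acid, ALDH1A1, ALDH1A2 and ALDH1A3 make it, CYP26B1 breaks it down, and RARA, RARB and RARG are its receptors. Of these 9 genes, 8 had a row among the 29837 named genes of the count table. CYP26B1 was not analysed here. The cells came from the juvenile LGR5-H2B-GFP pigs 88R and 95R, in which a nuclear histone H2B-GFP had been knocked into the first exon of LGR5 on a single allele, the other allele being left to make LGR5. Each pig gave 1 LGR5-high library (sorted GFP-high cells) and 1 LGR5-negative library (sorted GFP-negative cells), so both populations carried the same knock-in and there were 2 libraries of each. The line was founded by nuclear transfer from clonal edited fibroblasts, and whether these pigs were founders or progeny is not given in the labels. Hair and epidermis had been peeled from the dermis together, and the negative gate therefore holds all GFP-negative cells of both. Fewer cells of a type and less RNA per cell cannot be told apart in such libraries.

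Retinol is taken up from the blood, bound inside the cell and either stored as an ester or oxidised to retinal by reversible dehydrogenases. The ALDH1A enzymes then oxidise retinal irreversibly to retinoic acid, which CRABP2 can carry to the nucleus, while CRABP1 keeps it in the cytoplasm and CYP26 enzymes degrade it. Retinoic acid acts through receptors of the RAR family paired with RXR, and it is known in skin for changing keratinocyte differentiation and the hair cycle.

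The libraries held between 30696803 and 32463362 counts. Pairs of values are given for pig 88R first and pig 95R second. Levels are in CPM, which sets counts against library size with TMM factors, and 3 counts, taken as the smallest measurable signal, corresponded to between 0.0872 and 0.105 CPM. For LGR5 itself the sorted GFP-high cells gave 4551 and 6224 counts, against 36 and 109 in the GFP-negative cells. The keratinocyte genes KRT5, TP63, CDH1 and DSP were present in both populations and did not pass the test, while KRT1 and KRT10, keratins of the differentiated epidermis, were lower in LGR5-high with log2 fold changes of -3.56 and -3.44. KRT14 was not analysed here. Summed over each list, melanocyte genes and Langerhans and immune genes were higher in LGR5-negative. The 7 melanocyte genes summed to 39.2 and 34.5 CPM in LGR5-high and to 65.1 and 240.4 CPM in LGR5-negative, with 5 lower in LGR5-high and 0 higher. DCT, not called, gave 25.5 and 24.0 CPM of the LGR5-high sums and 21.3 and 77.8 CPM of the LGR5-negative sums. KIT was not called either, at 1.79 mean CPM in LGR5-high against 1.92. The 6 Langerhans and immune genes summed to 21.1 and 15.6 CPM against 161.2 and 135.9 CPM, with 3 lower and 1 (AIF1) higher. The 6 measured genes of the hair matrix and inner root sheath summed to 1359 and 1026 CPM in LGR5-high and to 338.2 and 317.5 CPM in LGR5-negative, with 4 higher and 1 lower. Other markers also moved. The 5 smooth muscle genes summed to 403.1 and 291.7 CPM in LGR5-high against 15.1 and 14.6 CPM, with 4 of 4 tested higher, TAGLN giving most of the sum and DES having at most 2 counts in a library. The 9 dermal fibroblast genes summed to 1234 and 1477 CPM against 676.3 and 370.0 CPM, with 3 higher and 5 lower, COL1A2, COL1A1 and THY1 being the higher ones and COL3A1, DCN, DPT, LUM and PDGFRA the lower ones, of which LUM and PDGFRA had at most 5 counts in each LGR5-high library. The 4 Schwann cell genes summed to 58.6 and 78.8 CPM against 5.44 and 10.7 CPM, with 2 higher and 1 (SOX10) lower. The dermal papilla and sebocyte lists had 2 of 4 and 2 of 2 tested genes higher and 0 lower, with summed CPM of 43.4 and 39.0 against 23.7 and 27.6 and of 238.1 and 217.4 against 100.5 and 107.8. In LGR5-high, LEF1 gave 36.3 and 32.2 CPM of the dermal papilla sum, and SCD gave 228.3 and 210.7 CPM of the sebocyte sum. Of the untested papilla genes, RSPO3 had 1 and 1 counts against 6 and 13, and SOX2 had 3 and 5 against 0 and 0. FADS2, the other higher sebocyte gene, had 1 and 13 counts in LGR5-negative. AWAT1, MOGAT1 and PLIN1 had at most 5 counts in a library. The 6 endothelial genes summed to 6.28 and 7.59 CPM against 21.4 and 21.5 CPM, with 5 lower and 0 higher. Of the lower ones, CDH5, KDR and CLDN5 passed the filter on low counts only through the LGR5-negative libraries. The same held for PTPRC, CD207, LUM and PDGFRA in the lists above. Such genes could enter the test only by being higher in LGR5-negative. The part of any of these cell types in the results that follow was not tested.

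In LGR5-high, the retinoic acid carrier gene CRABP2 was 3.54-fold higher. The abundant receptor genes RARA and RARG were lower by 1.34-fold and 1.37-fold. The synthesis enzyme gene ALDH1A2, close to the limit of detection, was called 5.45-fold higher, but it passed the filter on low counts only through the LGR5-high libraries and lost its call in 7 of 13 alternatives. ALDH1A1, ALDH1A3 and RARB did not pass the test. The test was the quasi-likelihood test of edgeR on the raw counts, adjusted by Benjamini-Hochberg over the 15980 genes that passed a filter on low counts, with calls at an adjusted p under 0.05. It did not use the pairing of libraries by pig, and the pig as a replicate block was run as an alternative. Of these 15980 genes 22.7% were called higher and 22.0% lower, so that 2 higher (ALDH1A2 included) and 2 lower among 7 retinoid genes is near the background. Higher genes made up 50.9% of all calls, and 70.2% with library size in place of TMM. The median log2 fold change was 0.29 for these 7 genes and 0.02 for all tested genes. The plot of CPM by library shows each of the 8 measured genes in its own panel.

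**Figure D1:**
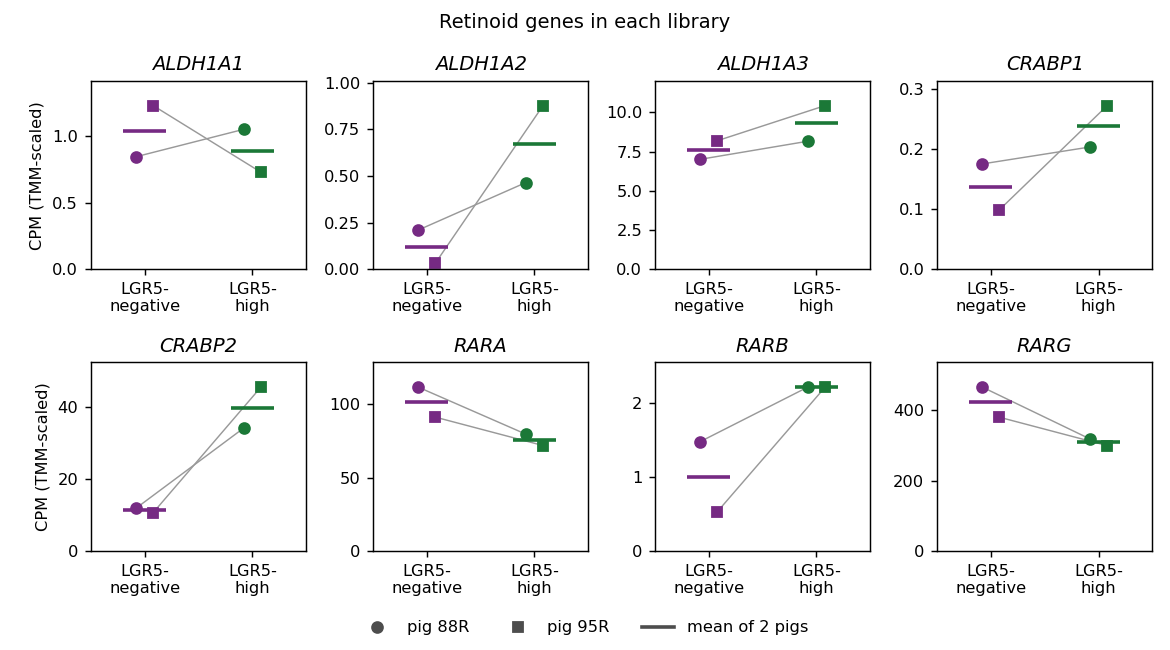
CPM (TMM-scaled) of the 8 measured retinoid genes in the LGR5-negative and LGR5-high libraries, each panel with its own axis from 0. Circles are pig 88R and squares pig 95R, grey lines join the libraries of a pig and bars are means of 2. CRABP2 rises in both pigs, RARA and RARG fall in both, and the lines of ALDH1A1 cross. Levels are not comparable between panels, since CPM is not divided by transcript length.

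Among the enzymes that make retinoic acid, ALDH1A3 gave most of the counts. ALDH1A3 had 281 and 345 counts in LGR5-high, and 200 and 248 in LGR5-negative. The LGR5-high values, 8.17 and 10.4 CPM, lay on either side of the higher of the LGR5-negative values, 7.01 and 8.20 CPM, so the populations overlapped across pigs. Within each pig LGR5-high was the higher, by 0.22 and 0.35 on the log2 scale. Its log2 fold change was 0.29 with an unadjusted 95% interval from -0.19 to 0.77 (edgeR adjusted p = 0.274). A doubling in either direction lies outside this interval, while no change and smaller differences within its limits are not excluded. An entry of uncharacterised function overlaps ALDH1A3 in the RefSeq table, with between 7 and 12 counts per library.

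ALDH1A1, a cytosolic retinal dehydrogenase, moved in opposite directions in the pigs. Pig 88R had 36 counts in LGR5-high and 24 in LGR5-negative, and pig 95R had 24 and 37. In CPM the values were 1.05 and 0.73 in LGR5-high and 0.84 and 1.22 in LGR5-negative, and neither population stood above the other. Its log2 fold change was -0.22 with an interval from -1.18 to 0.74 (edgeR adjusted p = 0.674), so a change within these limits is not excluded. Counting error alone gave a ratio over both pigs of 0.857 with a 95% interval from 0.59 to 1.24.

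ALDH1A2, the retinal dehydrogenase best known from the embryo, had 16 and 29 counts in LGR5-high and 6 and 1 in LGR5-negative. Both LGR5-high libraries were above both LGR5-negative libraries, at 0.67 ± 0.29 CPM against 0.12 ± 0.13 CPM (SD, n = 2 pigs). The log2 fold change was 2.44 with a standard error of 0.77 (edgeR adjusted p = 0.0464). The gene passed the filter on low counts only through the LGR5-high libraries. Counting error alone gave a ratio of 2.21 in pig 88R with a 95% interval from 0.822 to 6.90, and a ratio of 26.5 in pig 95R with an interval from 4.40 to 1080. The call was lost in 7 of 13 alternatives, including DESeq2 (adjusted p = 0.104) and the removal of the LGR5-high library of pig 88R, the LGR5-high library of pig 95R or the LGR5-negative library of pig 95R (adjusted p = 0.0853, 0.24 and 0.142 from edgeR). Without the LGR5-negative library of pig 88R the log2 fold change rose to 4.18, and on log2(CPM + 1), which shrinks low values, it was 0.57. Over all alternatives the adjusted p lay between 0.00724 and 0.24.

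Within the summed ALDH1A counts, ALDH1A3 made up 84.4% and 86.7% in LGR5-high and 87.0% and 86.7% in LGR5-negative. ALDH1A2 made up 4.80% (Wilson 95% interval 2.98 to 7.66) and 7.29% (5.12 to 10.3) in LGR5-high, and 2.61% (1.20 to 5.57) and 0.35% (0.06 to 1.95) in LGR5-negative. ALDH1A1 made up 10.8% (7.91 to 14.6) and 6.03% (4.08 to 8.82) in LGR5-high, and 10.4% (7.11 to 15.1) and 12.9% (9.53 to 17.3) in LGR5-negative. In pig 88R the intervals of the populations overlapped for each gene, and in pig 95R those of ALDH1A2 and of ALDH1A1 lay apart, in opposite directions. These shares are of counts, not of molecules, because transcript length was not used, and the intervals cover counting error only.

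CRABP2 showed the clearest difference of the retinoid genes. CRABP2 counts were 1175 and 1506 in LGR5-high, and 338 and 322 in LGR5-negative. Both LGR5-high libraries lay well above both LGR5-negative libraries, at 39.9 ± 8.06 CPM against 11.3 ± 0.852 CPM (SD, n = 2). The log2 fold change was 1.82 with a standard error of 0.17 (edgeR adjusted p = 0.000716), with 1.52 and 2.09 in the single pigs. It was called in 13 of 14 alternatives, and the exception was the per-gene test that the study's methods name, run on log2 CPM (adjusted p = 0.073). The adjusted p over the alternatives went from 5.85e-17 to 0.073.

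CRABP1, the cytoplasmic relative of CRABP2, was close to the limit of detection in every library. It had 7 and 9 counts in LGR5-high and 5 and 3 in LGR5-negative, which the filter on low counts removed. The LGR5-high values, 0.20 and 0.27 CPM, were above the LGR5-negative values of 0.18 and 0.10 CPM. Counting error alone gave a ratio over both pigs of 1.74 with a 95% interval from 0.703 to 4.70, which includes no change. When all genes with at least 1 count were tested, CRABP1 had a log2 fold change of 0.77 and was not called (edgeR adjusted p = 0.488). CRABP1 contributed 0.59% of the CRABP counts in each LGR5-high library, and 1.46% and 0.92% in the LGR5-negative libraries.

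**Figure D2:**
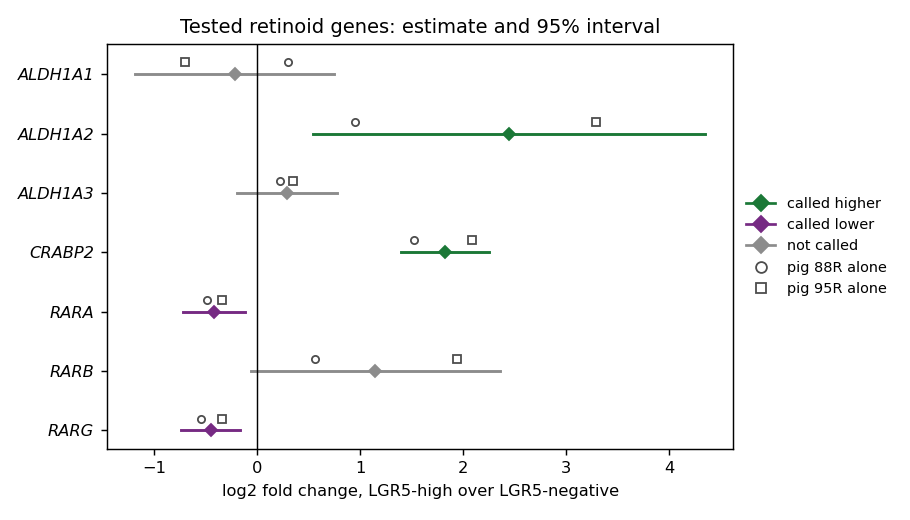
log2 fold change of LGR5-high over LGR5-negative for the 7 tested retinoid genes. Diamonds and lines are the edgeR estimate and its unadjusted 95% interval, coloured by call, and open circles and squares are pigs 88R and 95R alone. CRABP2 and ALDH1A2 lie to the right of 0, RARA and RARG to the left, and the pigs lie far apart for ALDH1A2 and RARB.

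Of the receptor genes, RARG gave the most counts, as the receptor that prevails in epidermis. RARG had 10957 and 9902 counts in LGR5-high, and 13294 and 11501 in LGR5-negative. LGR5-high lay below LGR5-negative in both pigs without overlap, at 309.1 ± 13.4 CPM against 423.3 ± 60.7 CPM (SD, n = 2). The log2 fold change was -0.45 with a standard error of 0.12 (edgeR adjusted p = 0.0245). The RefSeq table for Sscrofa11.1 lists the RARG entry as a long non-coding RNA rather than a protein-coding gene. What this entry covers in the annotation the authors counted on is not given in the sources used here.

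RARA, the receptor found in most tissues, had 2743 and 2378 counts in LGR5-high and 3190 and 2762 in LGR5-negative. Again the populations did not overlap, at 75.8 ± 5.52 CPM against 101.6 ± 14.5 CPM for LGR5-negative (SD, n = 2). RARA had a log2 fold change of -0.42 with a standard error of 0.12 (edgeR adjusted p = 0.0353). The direction of RARA and RARG was the same under every scaling tried, but the calls depended on it. With library size only, which raised the median over all genes to 0.24 on the log2 scale, RARA had -0.20 and RARG -0.23 and neither was called (edgeR adjusted p = 0.219 and 0.143). Relative to the median of all genes, RARA was at -0.44 and RARG at -0.47 under both TMM and library size. A change of scaling shifts all genes by nearly the same amount, so this agreement was fixed in advance and is no test of the calls. Each lost its call without the LGR5-high library of pig 88R, the LGR5-negative library of pig 88R or the LGR5-high library of pig 95R, with adjusted p from edgeR of 0.0705, 0.137 and 0.179 for RARA and of 0.0775, 0.0641 and 0.137 for RARG. With the pig entered as a replicate block both were called lower (edgeR adjusted p = 0.000872 for RARA and 0.000469 for RARG). Over the alternatives the adjusted p went from 0.000872 to 0.219 for RARA and from 0.00024 to 0.189 for RARG.

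RARB, the receptor gene that is itself a well-known target of retinoic acid, had values on the other side. It had 76 and 73 counts in LGR5-high and 42 and 16 in LGR5-negative. The LGR5-high libraries were nearly equal at 2.21 CPM each, and the LGR5-negative libraries differed from each other, at 1.47 and 0.53 CPM. The log2 fold change was 1.14 with a standard error of 0.49, and RARB was not called (edgeR adjusted p = 0.107). Once the pig was entered as a replicate block, the estimate was 1.22 on the log2 scale and RARB was called higher (edgeR adjusted p = 0.01). DESeq2 with the same block did not call it (adjusted p = 0.135). With the block in edgeR 28.5% of all tested genes were called higher and 27.2% lower. RARB was also called without the LGR5-negative library of pig 88R (log2 fold change 2.05, edgeR adjusted p = 0.0123), whereas without the LGR5-negative library of pig 95R the log2 fold change was 0.57 (edgeR adjusted p = 0.26). Over all 14 alternatives the adjusted p lay between 0.01 and 0.271.

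The ratio of RARA to RARG was nearly the same in all libraries. RARG made up between 79.5% and 80.5% of the RAR counts and RARA between 19.2% and 19.9%. The share of RARB was 0.55% (Wilson 95% interval 0.44 to 0.69) and 0.59% (0.47 to 0.74) in LGR5-high. In LGR5-negative it was 0.25% (0.19 to 0.34) and 0.11% (0.07 to 0.18). These intervals cover counting error only, the LGR5-negative libraries differed from each other, and the difference in share between the populations was not tested.

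**Figure D3:**
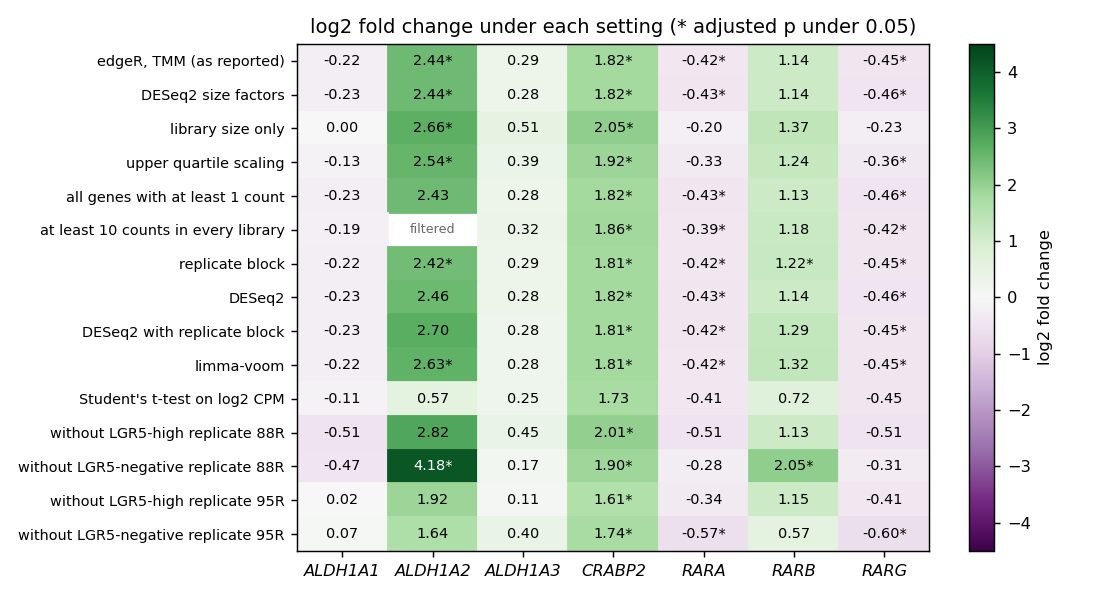
log2 fold change (number and colour) of the 7 tested retinoid genes under the reported edgeR test and 14 alternatives, with an asterisk where the adjusted p-value was under 0.05. CRABP2 carries an asterisk in all alternatives but 1, RARB only with the replicate block and without the LGR5-negative library of pig 88R, and ALDH1A1 and ALDH1A3 in none. ALDH1A2 was removed by the filter of at least 10 counts in every library.

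The rest of the pathway was described from lists of 56 further genes, of which 54 were measured and 43 tested. In LGR5-high, 9 of the 43 were called higher and 14 lower, beside 22.7% and 22.0% of all tested genes, and 20 were not called. Their median log2 fold change was -0.21.

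Of the 6 tested genes for retinol uptake, transport and storage, 1 was higher and 0 lower, beside 22.7% and 22.0% of all tested genes. RBP5, a cellular retinol-binding protein gene, had 1061 and 1413 counts in LGR5-high and 5 and 8 in LGR5-negative, a log2 fold change of 7.35. RBP5 passed the filter on low counts only through the LGR5-high libraries, and it overlaps the adhesion gene CLSTN3 in the RefSeq table. CLSTN3 moved alike, with 5875 and 4621 counts in LGR5-high and 25 and 33 in LGR5-negative and a log2 fold change of 7.29. RBP5 counts amounted to between 18.1% and 30.6% of the CLSTN3 counts in every library, and with no strand setting given, reads of one cannot be told apart from reads of the other. The retinoid uptake receptor gene STRA6 and the esterifying enzyme gene LRAT did not pass the test, with 0.52 and 0.63 mean CPM in LGR5-high and 0.70 and 1.26 in LGR5-negative.

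Of the 15 tested oxidoreductases between retinol and retinal, 4 were higher and 6 lower, beside 22.7% and 22.0% of all tested genes. The largest increase among them was that of DHRS3, which reduces retinal back to retinol and is known to be induced by retinoic acid. DHRS3 had 2228 and 1753 counts in LGR5-high and 514 and 445 in LGR5-negative, with 58.9 ± 8.30 CPM against 16.4 ± 2.34 CPM (SD, n = 2). Its log2 fold change was 1.85 (standard error 0.16, edgeR adjusted p = 0.00049), and was 1.84 in each pig. RDH12, another retinal reductase gene, had a log2 fold change of 0.99, and AKR1B1, the aldose reductase gene, one of 1.13. RETSAT, which saturates retinol, had a log2 fold change of 0.76. It overlaps ELMOD3 and TGOLN2 in the RefSeq table, of which ELMOD3 was also called higher at 0.96 and TGOLN2 was not called.

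The largest decrease among the 15 was that of ADH1C, an alcohol dehydrogenase gene of the class that can oxidise retinol. ADH1C had 214 and 187 counts in LGR5-high and 2192 and 2059 in LGR5-negative, with 5.94 ± 0.399 CPM against 72.5 ± 6.21 CPM (SD, n = 2). It was 12.2-fold lower in LGR5-high (log2 fold change -3.61, standard error 0.12, edgeR adjusted p = 5.65e-05), and was called in all 14 alternatives. ADH1C overlaps C8H4orf17 in the RefSeq table. C8H4orf17 was also called lower, with 33 and 32 counts in LGR5-high, 92 and 111 in LGR5-negative and a log2 fold change of -1.84. How reads shared between related alcohol dehydrogenase genes were counted is not given in the sources used here. SDR16C5, an epidermal retinol dehydrogenase gene, had 37 and 25 counts in LGR5-high and 95 and 145 in LGR5-negative, with a log2 fold change of -2.14. The other lower genes were DHRS4 (-1.28), RDH14 (-0.85), DHRS7 (-0.72) and RDH10 (-0.50), the last being a main retinol dehydrogenase of the embryo. RDH11, RDH13, RDH16, ADH4 and ADH5 were not called. Roles are given here for only some of the 15 genes. The calls were not grouped by the direction of the reaction, and no difference between oxidising and reducing enzymes was tested. RDH10 was called in 6 of 14 alternatives, and not with library size only (log2 fold change -0.28, edgeR adjusted p = 0.174, in a range from 0.00905 to 0.174). It also lost its call without the LGR5-high library of pig 88R, the LGR5-negative library of pig 88R or the LGR5-high library of pig 95R. DHRS9, a further retinol dehydrogenase gene outside the test, had 1 and 0 counts in LGR5-high and 9 and 19 in LGR5-negative. When all genes with at least 1 count were tested, DHRS9 was called lower (log2 fold change -4.67, edgeR adjusted p = 0.0128, in a range from 0.0128 to 0.0784 over the 4 alternatives that tested it).

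Of the CYP26 enzymes only CYP26A1 was measured. It had 6 and 4 counts in LGR5-high and 1 and 5 in LGR5-negative, and it was removed by the filter. Counting error alone gave a ratio over both pigs of 1.45 with a 95% interval from 0.478 to 4.86. This interval includes no change, so no difference in CYP26A1 could be shown at this depth.

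The next 4 tested genes were the receptor partners RXRA and RXRB and, for an alternative receptor route, PPARD and FABP5. Of these 4 genes, 2 were lower and 0 higher, beside 22.0% and 22.7% of all tested genes. RXRA, the partner of RARA and RARG in the heterodimer, had 11896 and 14018 counts in LGR5-high and 14597 and 17050 in LGR5-negative. Levels were 385.0 ± 55.3 CPM against 537.9 ± 36.7 CPM for LGR5-negative (SD, n = 2), with a log2 fold change of -0.48 (edgeR adjusted p = 0.0228). PPARD, a nuclear receptor to which FABP5 can deliver retinoic acid, had a log2 fold change of -0.65 (edgeR adjusted p = 0.0274). Both genes kept their direction but were not called with library size only (edgeR adjusted p = 0.124 and 0.0853), within ranges from 2.52e-05 to 0.183 for RXRA and from 5.74e-05 to 0.225 for PPARD. RXRA lost its call without the LGR5-high library of pig 88R or the LGR5-negative library of pig 95R, and PPARD without the LGR5-high library of pig 88R, the LGR5-negative library of pig 88R or the LGR5-high library of pig 95R. RXRB was not called. FABP5 was not called either (edgeR adjusted p = 0.0873), but was called higher under upper quartile scaling and under library size alone (edgeR adjusted p = 0.0283 and 0.00958, in a range from 0.00958 to 0.318). RXRG had between 1 and 5 counts per library.

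Among the 9 coregulator genes, 1 was higher and 4 were lower, beside 22.7% and 22.0% of all tested genes. NRIP1, a ligand-dependent corepressor of nuclear receptors that retinoic acid induces, was at 129.5 ± 8.89 CPM against 66.4 ± 3.41 CPM for LGR5-negative (SD, n = 2), with a log2 fold change of 0.96. The coactivator genes NCOA3 and NCOA2 had log2 fold changes of -0.98 and -0.56, and the acetyltransferase gene CREBBP one of -0.50. The corepressor gene NCOR1 had -0.27. It was not called with library size only (edgeR adjusted p = 0.616, in a range from 0.0151 to 0.616), nor after the removal of any single library.

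**Figure D4:**
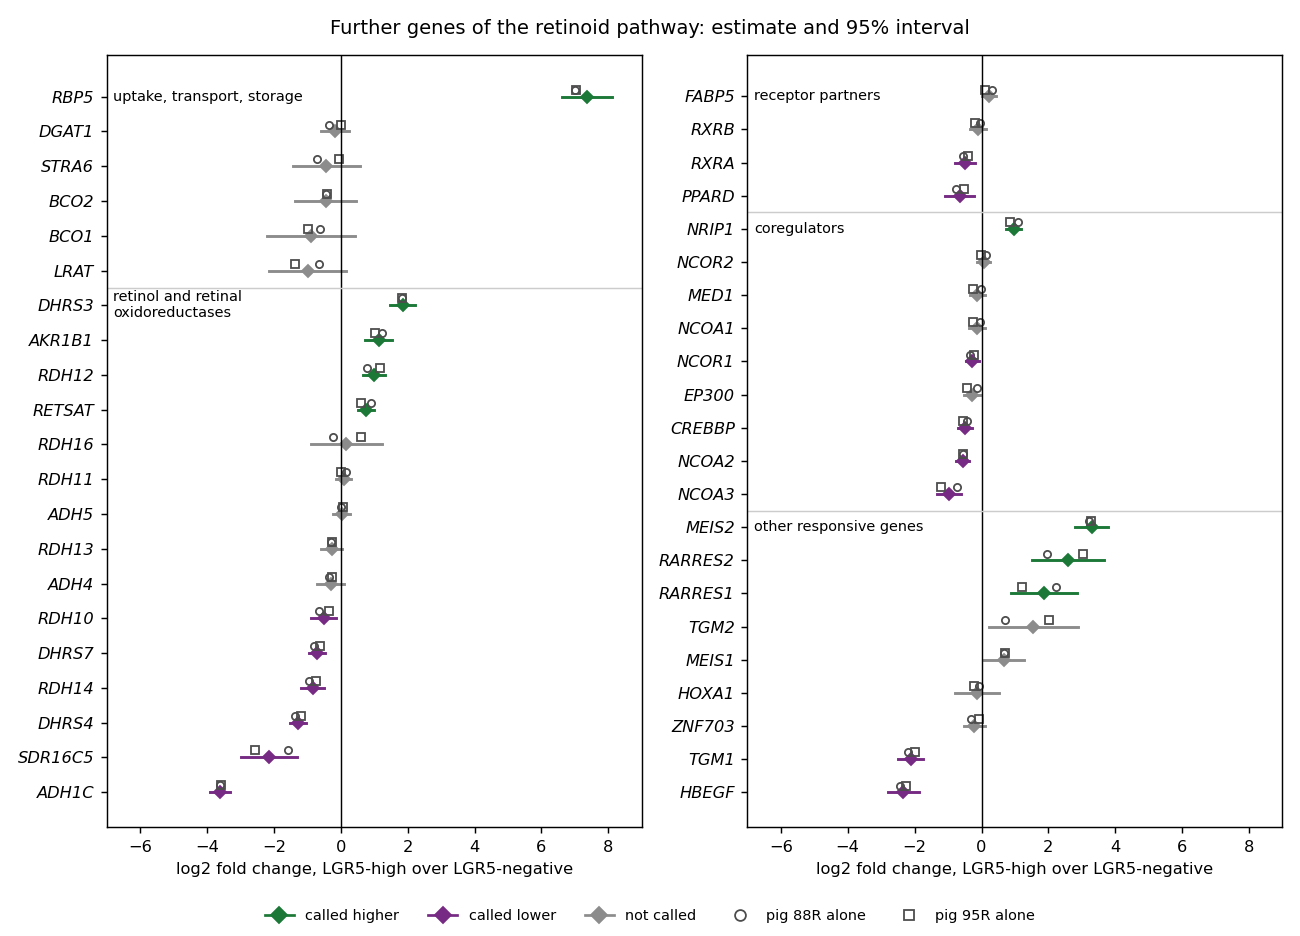
log2 fold change of LGR5-high over LGR5-negative for the 43 tested further genes, grouped by role. Diamonds and lines are the edgeR estimate and its unadjusted 95% interval, coloured by call, and open circles and squares are pigs 88R and 95R alone. RBP5, which overlaps CLSTN3, lies farthest to the right and ADH1C farthest to the left, and 9 genes were called higher and 14 lower.

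Genes widely described as responsive to retinoic acid were listed as well, 15 of which were tested. In LGR5-high 6 of them were higher and 2 lower, beside 22.7% and 22.0% of all tested genes, and 7 were not called. The median log2 fold change was 0.96 beside 0.02 for all tested genes. The list was chosen with results of these libraries known, and its count is not independent evidence of a direction. No direction of response to retinoic acid was set for its genes, so the count and the median pool both kinds. CRABP2 is 1 of the 6, and DHRS3 and NRIP1 are shared with the lists above. The 3 others were MEIS2, RARRES2 and RARRES1. MEIS2, a homeobox gene, had 764 and 606 counts in LGR5-high and 66 and 55 in LGR5-negative, and a log2 fold change of 3.29 (edgeR adjusted p = 0.000188). RARRES2, which encodes the chemoattractant chemerin, had 77 and 78 counts against 15 and 7, and a log2 fold change of 2.60, and it passed the filter on low counts only through the LGR5-high libraries. RARRES1, a membrane protein gene first found as induced by retinoids, had 281 and 128 counts against 48 and 49, and a log2 fold change of 1.86. RARRES1 lost its call without the LGR5-high library of pig 88R (log2 fold change 1.22, edgeR adjusted p = 0.0569, in a range from 2.97e-05 to 0.188). The 2 lower genes were HBEGF, an EGF receptor ligand, with a log2 fold change of -2.34, and TGM1, the transglutaminase of the cornified envelope, with -2.11. TGM1 moved with KRT1 and KRT10, and the part of differentiated cells in its difference was not tested.

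The profiles most like those of the retinoid genes over the 4 libraries were sought among all tested genes, by distance on log2(CPM + 1) centred on each gene. The nearest to CRABP2 that carried a gene name was DGKI (distance 0.0959). TATDN2 was nearest to RARG (0.00619), LRRC39 to RARA (0.0118), RIIAD1 to ALDH1A2 (0.0264) and GEN1 to RARB (0.0398). Near profiles did not always have near fold changes, since DGKI had a log2 fold change of 2.59 against 1.82 for CRABP2 and LRRC39 one of -1.39 against -0.42 for RARA. With only 4 libraries in 2 populations many genes share such profiles.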

How the data were processed

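RNA was sequenced from LGR5-high and LGR5-negative epidermal cells of 2 pigs. The values the authors deposited are raw counts by gene symbol, not normalized, made from poly(A) libraries of paired-end reads. The submitters' processing notes name Trimmomatic 0.36, STAR 2.5.2b and featureCounts of Subread 1.5.2. The genome build, the annotation and the strand setting are not given in the sources used here. All 29837 symbols matched the RefSeq table of Sscrofa11.1, used for names and overlaps. An entry without a name (between 0.36% and 0.626% of counts) was left out.

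The comparison used edgeR 4.0.16 in R 4.3.3 (filterByExpr at a minimum of 10 counts and a total of at least 15, TMM, quasi-likelihood test, 2-sided, Benjamini-Hochberg adjustment over 15980 genes). Standard errors were taken from the estimate and its F statistic. Log2 fold changes of single pigs used a prior count of 2. Alternatives used DESeq2 1.42.0, limma 3.58.1 (voom), a Student's t-test per gene on log2(CPM + 1), other scalings and filters, and each library left out. Pairs were libraries of the same animal, as the shared label number shows. Their deviations from the population means correlated at 0.422 across genes. Tests were tested on simulated data. The intervals of count ratios, the Wilson intervals and the floor of 3 counts cover counting error only. The intervals of log2 fold changes come from the edgeR fit and include its estimate of the variation between libraries. Plots used matplotlib 3.10.9. The retinoid genes and the lists were chosen with earlier results of these data known. Named are the 9 retinoid genes, the called genes of the lists, LGR5, the nearest profiles and cell type markers. Genes that overlap them, and some genes outside the test or not called, were named after their values were seen. Some listed genes are not reported here and were left out of the list counts.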

Additional observations from a re-analysis of the deposited data

How the results depend on the processing

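The numbers of called retinoid genes, 2 higher and 2 lower, moved with the setting. The higher genes numbered 1 with all genes with at least 1 count, with at least 10 counts in every library (where ALDH1A2 was filtered out), with DESeq2 and with DESeq2 with the replicate block, 3 with the replicate block in edgeR, and 0 with Student's t-test. The lower genes numbered 0 with library size only, 1 with upper quartile scaling, and 0 with Student's t-test. Leaving out each library in turn gave between 1 and 3 higher and between 0 and 2 lower genes; an arm left with 1 library was assumed to vary like the other. ALDH1A1, never called, changed sign with library size only (log2 fold change 0.0017) and lay between -0.51 and 0.067 when each library was left out. Of the further pathway genes, Student's t-test called 1 higher and 3 lower, against 9 and 14, and library size only called 14 higher and 10 lower. The other settings gave between 7 and 11 higher and between 11 and 17 lower. In edgeR the replicate block (pairing) added, besides RARB, calls for MEIS1 and TGM2 (higher) and BCO1, EP300 and LRAT (lower) and removed none. In DESeq2 it added MEIS1, removed RDH10 (adjusted p = 0.0479 to 0.113), and left RARB, TGM2, BCO1 and LRAT not called. TGM2 had 17 and 24 counts in LGR5-high and 8 and 4 in LGR5-negative. It passed the filter on low counts only through the LGR5-high libraries. Where no cause is named above, the cause was not tested. Library size only raised the share of higher calls over all genes from 50.9% to 70.2%, and upper quartile scaling to 59.4%. Student's t-test called 544 genes higher and 502 lower, against 3632 and 3508. Levels per transcript length were not computed, since the reference table gives gene spans only. Counts of 10 or fewer per library limit CRABP1, CYP26A1 and the LGR5-negative values of ALDH1A2.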
